A study of Homo sapiens with 8 samples.

Results

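Ferritin and iron handling genes were described across the groups of a human osteosarcoma RNA-seq study. The 10 genes were chosen by name from 21123 listed genes, with no threshold on a measured value: FTH1, FTL, TFRC, SLC40A1, SLC11A2, NCOA4, IREB2, ACO1, HMOX1 and SLC39A14. All 10 were found in the table, and 9 passed the filter on low values. The libraries came from 143B cells, an established osteosarcoma line, in a design that crossed knockdown of ZDHHC8, which encodes a palmitoyltransferase, with cisplatin, a platinum drug that crosslinks DNA. The 4 groups were shZDHHC8 cells under cisplatin, shControl cells under cisplatin, shZDHHC8 cells with vehicle and shControl cells with vehicle, each with 2 libraries labelled as biological replicates. Every cell carried a stable shRNA, either against ZDHHC8 or a control, all libraries share the label of batch 1, and the vehicle was PBS. Treatment lasted 48 h at a dose that is not given in the labels, which also do not say whether the shRNA lines were clones or pools.

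Iron enters most cells bound to transferrin through the transferrin receptor, is reduced and moved across the endosomal membrane, and is then used, exported by ferroportin or stored inside the ferritin shell, which is built of heavy chains (FTH1) and light chains (FTL). The heavy chain oxidises iron for storage. Iron regulatory proteins sense cytosolic iron and bind hairpins in mRNAs called iron-responsive elements: when iron is scarce, a bound element before the coding region blocks translation, and bound elements behind it protect the mRNA from decay. Ferritin is returned to the iron pool by ferritinophagy, its delivery to lysosomes by the receptor NCOA4, and heme iron is released by heme oxygenase, encoded by HMOX1. Ferritin and heme oxygenase genes are also known targets of the stress-responsive transcription factor NRF2. mRNA levels do not show the translational step of this control.

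The hairpins through which several of these mRNAs are read by iron regulatory proteins are shown because they place the measured genes in that system. A search of GENCODE release 29 transcripts on GRCh38, on the transcript strand, looked for the motif CNNNNNCAGTGN, and for the variant loop CNNNNNCAGAGN, with pairing bases on both sides of the loop. The loop of 6 bases is in capitals, and all sequences run 5′ to 3′. Shown are the matches with 5 of 5 stem pairs, and the match behind the coding region of SLC11A2, a gene known for such an element. Those before the coding region, in the 5′ UTR, were
FTH1 at chr11:61967574-61967602, minus strand: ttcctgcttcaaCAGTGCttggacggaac
FTL at chr19:48965335-48965363, plus strand: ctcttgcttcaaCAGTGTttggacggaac
SLC40A1 at chr2:189580661-189580689, minus strand: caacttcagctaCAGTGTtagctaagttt
and those behind it, in the 3′ UTR, were
TFRC at chr3:196051029-196051057, minus strand: atttatcagtgaCAGAGTtcactataaat
TFRC at chr3:196050979-196051007, minus strand: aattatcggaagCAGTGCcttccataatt
TFRC at chr3:196050575-196050603, minus strand: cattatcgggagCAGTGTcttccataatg
TFRC at chr3:196050510-196050538, minus strand: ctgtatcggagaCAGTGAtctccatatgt
TFRC at chr3:196050463-196050491, minus strand: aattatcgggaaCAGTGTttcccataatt
SLC11A2 at chr12:50988269-50988297, minus strand: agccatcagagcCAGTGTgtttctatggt
The SLC11A2 match shown had 4 of 5 stem pairs. The search gave 3 further matches with 4 of 5 pairs, which are not shown: in the 5′ UTR of SLC11A2 and the 3′ UTR of HMOX1 with the variant loop, and in the 3′ UTR of IREB2 with the CAGTGN loop. Matches of SLC39A14 are not reported here. Among 19519 coding genes, 0.159% had a 5′ UTR match with the CAGTGN loop and 5 pairs, and 0.656% had such a match in a 3′ UTR. The variant loop with 5 pairs was found in the 5′ UTR of 0.225% of genes and in the 3′ UTR of 0.61%. With at least 4 pairs the CAGTGN share was 3.8% in 3′ UTRs. A match is a description of the sequence, and binding was not measured here.

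Values were the authors' normalized gene values, taken as FPKM, so the read depth is unknown and precision rests on the 2 libraries of each group. ZDHHC8, the targeted gene, was at 23.5 and 22.3 FPKM in shZDHHC8 cells and 32.3 and 32.8 in shControl cells under cisplatin, and at 14.3 and 9.81 FPKM in shZDHHC8 cells and 23.7 and 23.1 in shControl cells with vehicle. It was lower in the knockdown in both comparisons (limma adjusted p = 0.0102 and 0.000472), but did not pass under cisplatin without shZDHHC8 cisplatin replicate 2 (limma adjusted p = 0.0553). Column totals lay between 361060 and 391016. Of 9 osteoblast markers, 7 were listed and 4 averaged at least 1 FPKM; IBSP, COL1A2 and BGLAP stayed under 1, and the summed level ranged from 221 to 224 FPKM in shZDHHC8 and 72 to 78.7 in shControl cells under cisplatin, and from 283 to 298 in shZDHHC8 and 163 to 170 in shControl cells with vehicle. All 5 mesenchymal markers were present, and their summed level was 1664 to 1692 FPKM in shZDHHC8 and 1547 to 1552 in shControl cells under cisplatin, and 2653 to 2827 in shZDHHC8 and 2406 to 2455 in shControl cells with vehicle. Of 6 epithelial markers 5 averaged at least 1 FPKM, with CDH1 under 1, and their sum was 559 to 577 in shZDHHC8 and 770 to 781 in shControl cells under cisplatin, and 635 to 645 in shZDHHC8 and 901 to 912 in shControl cells with vehicle. The mesenchymal sum was thus lower under cisplatin in both lines, and the epithelial sum lower in the knockdown at both treatments and under cisplatin in both lines. Of 7 macrophage markers only CD68 exceeded 1 FPKM, with PTPRC, CD14 and AIF1 under 1, and the listed erythroid marker HBA2 was at most 0.337 FPKM. The macrophage sum, which is nearly all CD68, was 60.6 to 69.7 in shZDHHC8 and 16 to 16 in shControl cells under cisplatin, and 41.6 to 46 in shZDHHC8 and 14.5 to 16.2 in shControl cells with vehicle. The part of these marker levels in the results below was not tested. Log2 changes below are differences of mean log2(FPKM + 1), a scale that understates changes of low genes, and calls are those with a limma adjusted p below 0.05 over the 13495 tested genes. The comparisons share libraries and are not independent of each other. The marker sums hide genes that went the other way. Of 4 tested osteoblast markers the knockdown raised 4 under cisplatin, and raised 2 and lowered 2 with vehicle. Of 5 mesenchymal markers it raised 1 under cisplatin, and raised 3 and lowered 1 with vehicle. Cisplatin in shControl cells raised 1 and lowered 3 of these, and raised 1 and lowered 4 of 5 tested epithelial markers. The shares of all tested genes are given below.

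FTH1 had the highest value of all genes in every library. It was higher in shZDHHC8 than in shControl cells by 29% under cisplatin and 30.2% with vehicle, while FTL was higher by 11.1% and 9.8%. Neither of these FTL calls held after scaling to a common column total. HMOX1 was lower in shZDHHC8 cells by 38.2% under cisplatin and 42.8% with vehicle. TFRC was higher in the knockdown at both treatments. Cisplatin lowered FTH1 and FTL in both lines and raised SLC39A14 in both.

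Knockdown of ZDHHC8 changed 7 of the 9 tested genes under cisplatin, 5 higher and 2 lower, where 61.4% of all tested genes were called, 33.8% higher and 27.6% lower. With vehicle it changed 5 of 9, 4 higher and 1 lower, where 51.7% were called, 26.7% higher and 25% lower. Cisplatin changed 6 of 9 in shZDHHC8 cells, 3 higher and 3 lower, against 50.5% of all tested genes, 36.9% higher and 13.6% lower. In shControl cells it changed 5 of 9, 1 higher and 4 lower, against 62.2%, with 36.8% higher and 25.4% lower. The total called was 77.8%, 55.6%, 66.7% and 55.6% of the 9 in these comparisons, in the order just given. The split by direction depended on the scaling: with column totals made equal the knockdown with vehicle raised 2 and lowered 3, and after median-of-ratios scaling cisplatin in shZDHHC8 cells raised 2 and lowered 5. The median log2 change of the 9 was 0.15 for the knockdown under cisplatin and 0.13 with vehicle, against 0.042 and 0.015 over all tested genes. It was -0.11 for cisplatin in shZDHHC8 cells and -0.12 in shControl cells, against 0.13 and 0.07 over all tested genes. No member reached a log2 change of 1 in either direction.

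**Figure D1:**
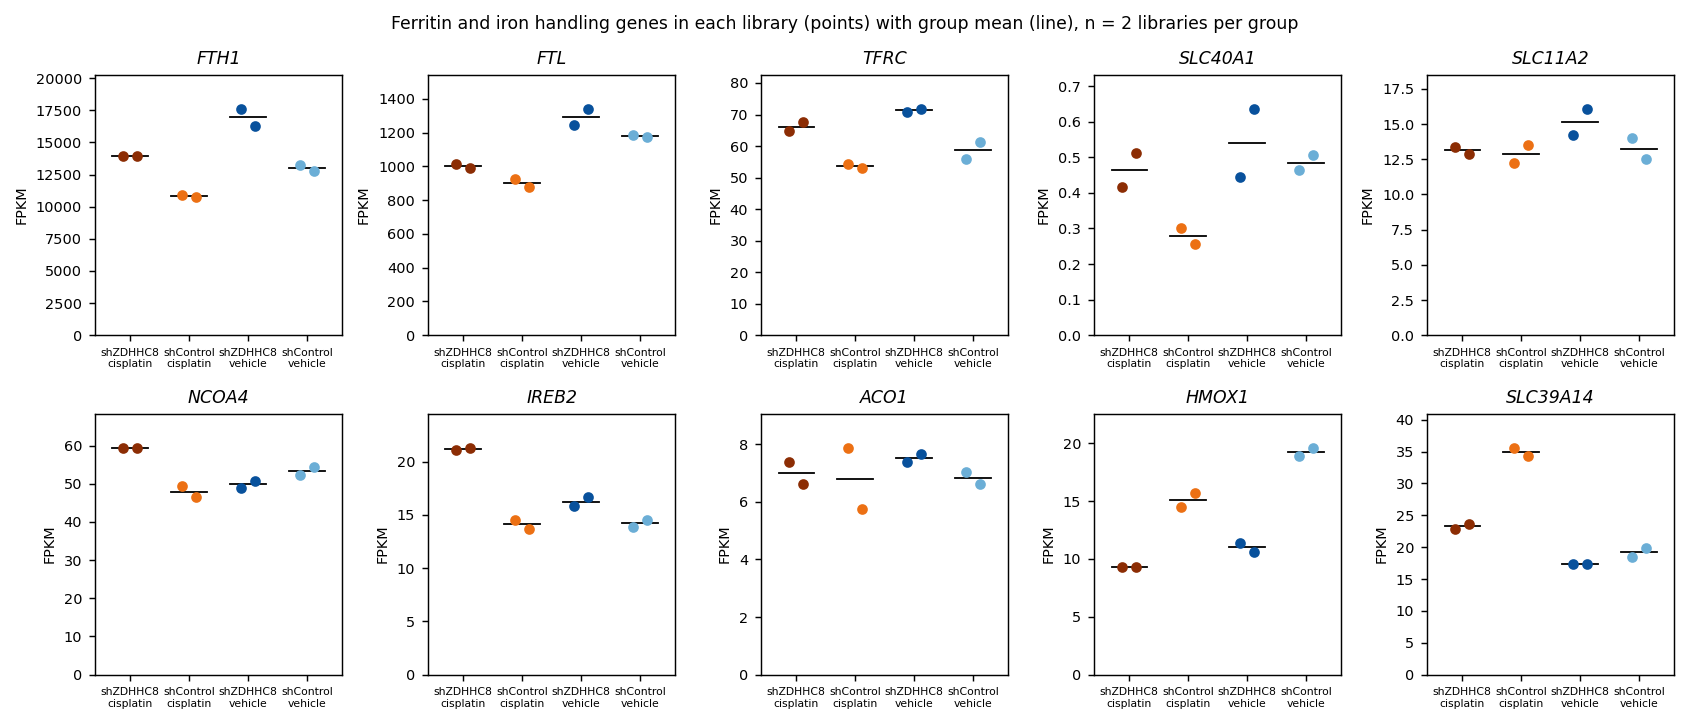
Level of each of the 10 genes in FPKM (linear axes from 0, 1 panel per gene) in each library, with groups along the horizontal axis; points are libraries and lines are the means of 2 libraries. FTH1 reaches 17634 FPKM in shZDHHC8 cells with vehicle, HMOX1 is lowest at 9.32 and 9.33 FPKM in shZDHHC8 cells under cisplatin, and SLC39A14 is highest at 34.3 and 35.6 FPKM in shControl cells under cisplatin.

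**Figure D2:**
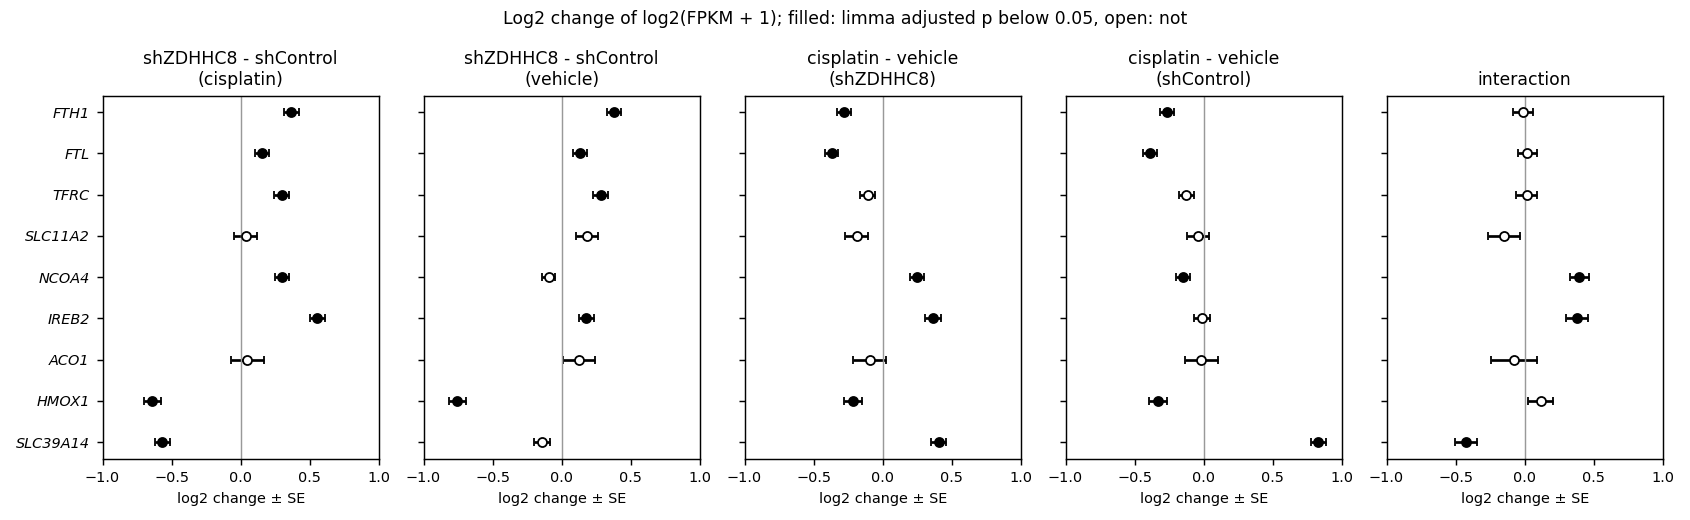
Log2 change with its standard error for the 9 tested genes in the 5 contrasts, on the log2(FPKM + 1) scale; filled points have a limma adjusted p below 0.05. FTH1, FTL and TFRC lie to the right of 0 in both knockdown panels and HMOX1 to the left, while NCOA4, IREB2 and SLC39A14 are the filled points of the interaction panel.

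FTH1 (ENSG00000167996, chromosome 11, positions 61959718 to 61967634, minus strand of hg38) encodes the ferritin heavy chain. The 2 libraries of each group gave FPKM values of 13967 and 13945 in shZDHHC8 cells under cisplatin, 10870 and 10761 in shControl cells under cisplatin, 17634 and 16275 in shZDHHC8 cells with vehicle, and 13245 and 12803 in shControl cells with vehicle. Every shZDHHC8 library lay above every shControl library of the same treatment, and every cisplatin library lay below every vehicle library of the same line. The levels in shZDHHC8 cells under cisplatin and in shControl cells with vehicle were the closest pair of groups, at means of 13956 ± 15.4 and 13024 ± 312 FPKM (SD, n = 2). The knockdown changed FTH1 by 0.37 ± 0.051 (SE) on the log2 scale under cisplatin (limma adjusted p = 0.000311) and by 0.38 ± 0.051 with vehicle (limma adjusted p = 0.000362). Cisplatin changed it by -0.28 in shZDHHC8 cells (limma adjusted p = 0.00222) and by -0.27 in shControl cells (limma adjusted p = 0.00177). The difference between these effects, the interaction, was -0.01 ± 0.073 (SE) (limma adjusted p = 0.918). All 4 FTH1 calls were lost when no filter on low values was applied with the intensity trend in place, at limma adjusted p of 0.115, 0.123, 0.243 and 0.244 in the order just given. They held with no filter and no trend, at 0.00226, 0.00284, 0.01 and 0.00817. FTH1 overlaps BEST1 on the opposite strand, which averaged 1.32 FPKM, and no source used here says whether reads were counted by strand. In bulk samples a change in the share of cells of a type and a change of RNA per cell cannot be told apart.

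FTH1 made up 3.57% and 3.6% of the column total in shZDHHC8 cells under cisplatin, 2.96% and 2.98% in shControl cells under cisplatin, 4.59% and 4.21% in shZDHHC8 cells with vehicle, and 3.58% and 3.51% in shControl cells with vehicle. The group means kept the order of the FPKM values, although shZDHHC8 cells under cisplatin and shControl cells with vehicle overlapped. The gene in the next position was MT-CO1 in 7 libraries and ACTG1 in shZDHHC8 vehicle replicate 1, at 4859 to 6474 FPKM.

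FTL (ENSG00000087086, chromosome 19, positions 48965309 to 48966879, plus strand) encodes the light chain and ranked from 22 to 26 among all genes of a library. Its level was 1014 and 989 FPKM in shZDHHC8 cells under cisplatin, 925 and 878 in shControl cells under cisplatin, 1247 and 1342 in shZDHHC8 cells with vehicle, and 1184 and 1174 in shControl cells with vehicle. All 4 cisplatin libraries lay below all 4 vehicle libraries, a wider separation than that between the lines. Cisplatin changed FTL by -0.37 ± 0.049 (SE) in shZDHHC8 cells (limma adjusted p = 0.000442) and by -0.39 ± 0.049 in shControl cells (limma adjusted p = 0.000155). Knockdown effects were smaller, at 0.15 under cisplatin (limma adjusted p = 0.0245) and 0.13 with vehicle (limma adjusted p = 0.0478), and the interaction was 0.02 (limma adjusted p = 0.864). Neither knockdown call held in all alternatives. Scaling to a common column total gave 0.06 under cisplatin (limma adjusted p = 0.291) and 0.06 with vehicle (limma adjusted p = 0.251). Leaving out 1 library gave 0.11 to 0.19 under cisplatin, with the call lost in 3 of 8 fits, and 0.08 to 0.19 with vehicle, with the call lost in 5 of 8.

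The ratio of FTH1 to FTL, in values taken as FPKM, was 13.8 and 14.1 in shZDHHC8 cells under cisplatin, 11.8 and 12.3 in shControl cells under cisplatin, 14.1 and 12.1 in shZDHHC8 cells with vehicle, and 11.2 and 10.9 in shControl cells with vehicle. Its size allows for transcript length only if the unit is FPKM, which the deposited table does not state. The ratio was higher in the knockdown at each treatment with no overlap between the lines, and the replicates of shZDHHC8 cells with vehicle lay further apart than those of any other group. No test was made of the ratio.

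**Figure D3:**
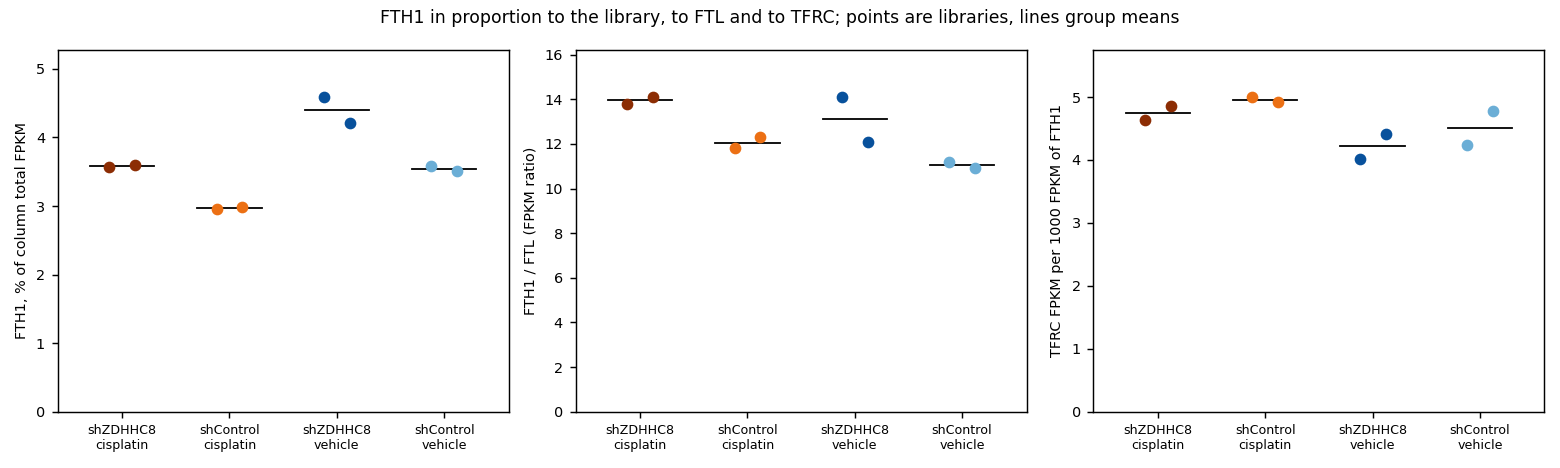
FTH1 as a percent of the column total, the ratio of FTH1 to FTL, and TFRC per 1000 FPKM of FTH1 (vertical axes from 0) in each library by group; points are libraries and lines are the means of 2 libraries. The FTH1 share is highest in shZDHHC8 cells with vehicle, at 4.21% and 4.59%, and the ratio of FTH1 to FTL is lowest in shControl cells with vehicle, at 10.9 and 11.2.

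Ferritin has many processed pseudogenes, near-identical copies to which reads of the parent gene can be assigned, and 13 of them were listed. Their summed level was 26.3 to 45.3 FPKM per library, which was 0.214% to 0.259% of FTH1 and FTL together. The 6 with a mean of at least 1 FPKM were FTH1P2 at 15.9, FTH1P8 at 8.98, FTH1P10 at 2.81, FTH1P7 at 1.87, FTH1P20 at 1.7 and FTH1P23 at 1.55 FPKM. Of 7 tested pseudogenes, the knockdown raised 2 under cisplatin and 3 with vehicle and lowered none in either comparison, where 33.8% and 26.7% of all genes were called higher. Cisplatin lowered 2 in shZDHHC8 cells and 1 in shControl cells and raised none, where 13.6% and 25.4% of all genes were called lower. For the knockdown under cisplatin the count was 0 after either scaling and without shZDHHC8 cisplatin replicate 1 or shControl cisplatin replicate 1, and 1 without shZDHHC8 cisplatin replicate 2 or either shZDHHC8 vehicle library. With vehicle it was 1 without either shZDHHC8 vehicle library or shControl vehicle replicate 2. For cisplatin it ranged from 1 to 4 in shZDHHC8 cells and from 0 to 4 in shControl cells with a library left out. FTH1P8 was at 8.54 and 8.2 FPKM in shZDHHC8 cells and 5.78 and 7.57 in shControl cells under cisplatin, and at 12.5 and 12.6 in shZDHHC8 cells and 8.87 and 7.85 in shControl cells with vehicle. Its groups were ordered as those of FTH1 in both knockdown comparisons. FTH1P10 and FTH1P20 also lay higher in the knockdown at both treatments with no overlap. FTH1P2 overlapped between the lines under cisplatin, at 16 and 14 FPKM in shZDHHC8 cells and 12.1 and 14.5 in shControl cells. FTH1P23 overlapped with vehicle, and FTH1P7 at both treatments. Values of these copies are uncertain, since the counting of reads that match several loci is not given in the sources used here.

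NCOA4 (ENSG00000266412, chromosome 10, positions 46005088 to 46030714, minus strand) encodes the cargo receptor that takes ferritin to lysosomes. NCOA4 was measured at 59.4 and 59.3 FPKM in shZDHHC8 cells under cisplatin, 49.5 and 46.4 in shControl cells under cisplatin, 49 and 50.7 in shZDHHC8 cells with vehicle, and 52.2 and 54.4 in shControl cells with vehicle. The group of shZDHHC8 cells under cisplatin lay above all other libraries. The knockdown raised NCOA4 under cisplatin by 0.30 ± 0.05 (SE) on the log2 scale (limma adjusted p = 0.000805) and gave -0.09 with vehicle, which did not pass (limma adjusted p = 0.143) except with column totals made equal (-0.16, limma adjusted p = 0.0194). Cisplatin raised it by 0.25 in shZDHHC8 cells (limma adjusted p = 0.00353) and changed it by -0.15 in shControl cells (limma adjusted p = 0.0273). These effects differed by 0.40 ± 0.071 (SE), a called interaction (limma adjusted p = 0.00411). The rise in shZDHHC8 cells was lost under median-of-ratios scaling, at 0.10 (limma adjusted p = 0.109). The fall in shControl cells was lost without shControl vehicle replicate 2 (limma adjusted p = 0.15), without shControl cisplatin replicate 2 (0.167) and without the intensity trend (0.059).

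TFRC (ENSG00000072274, chromosome 3, positions 196027183 to 196082096, minus strand) encodes the transferrin receptor and carries the 5 hairpins behind its coding region shown above. TFRC reached 64.7 and 67.6 FPKM in shZDHHC8 cells under cisplatin, 54.3 and 52.9 in shControl cells under cisplatin, 70.9 and 71.9 in shZDHHC8 cells with vehicle, and 56 and 61.2 in shControl cells with vehicle. All 4 shZDHHC8 libraries lay above all 4 shControl libraries. The knockdown raised TFRC by 0.30 ± 0.054 (SE) under cisplatin (limma adjusted p = 0.00135) and by 0.28 ± 0.054 with vehicle (limma adjusted p = 0.0024). Cisplatin gave -0.11 in shZDHHC8 cells and -0.12 in shControl cells, neither of which passed (limma adjusted p = 0.122 and 0.0718), and the interaction was 0.02 (limma adjusted p = 0.897). With median-of-ratios scaling both cisplatin values passed, at -0.26 in shZDHHC8 cells (limma adjusted p = 0.00473) and -0.19 in shControl cells (limma adjusted p = 0.0127). That scaling moved the median of all tested genes for cisplatin in shZDHHC8 cells to 0.0036, against 0.13 as deposited.

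TFRC and FTH1, which carry elements on opposite sides of the coding region, were both higher in the knockdown. TFRC per 1000 FPKM of FTH1 was 4.63 and 4.85 in shZDHHC8 cells under cisplatin, 5 and 4.92 in shControl cells under cisplatin, 4.02 and 4.42 in shZDHHC8 cells with vehicle, and 4.23 and 4.78 in shControl cells with vehicle. With vehicle this proportion overlapped between the lines. Under cisplatin it was lower in both knockdown libraries by a narrow margin. No test was made of this proportion.

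SLC39A14 (ENSG00000104635, chromosome 8, positions 22367249 to 22434129, plus strand) encodes ZIP14, a transporter that takes up iron not bound to transferrin, along with zinc and manganese. Its FPKM values were 22.9 and 23.7 in shZDHHC8 cells under cisplatin, 35.6 and 34.3 in shControl cells under cisplatin, 17.3 and 17.3 in shZDHHC8 cells with vehicle, and 18.5 and 19.9 in shControl cells with vehicle. The cisplatin libraries lay above the vehicle libraries in both lines, and shControl cells under cisplatin stood highest. Cisplatin raised SLC39A14 by 0.41 ± 0.055 (SE) in shZDHHC8 cells (limma adjusted p = 0.000467) and by 0.83 ± 0.055 in shControl cells (limma adjusted p = 3.66e-06). The shControl value was the largest change of a tested member in any contrast, and the rise was smaller in the knockdown: the interaction was -0.42 ± 0.077 (SE) (limma adjusted p = 0.00453). Under cisplatin SLC39A14 was lower in the knockdown, with a log2 change of -0.57 (limma adjusted p = 3.76e-05). With vehicle the change was -0.14 and did not pass (limma adjusted p = 0.0551), although it passed after scaling to a common column total (-0.21, limma adjusted p = 0.0128) and after median-of-ratios scaling (-0.15, limma adjusted p = 0.0398).

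SLC11A2 (ENSG00000110911, chromosome 12, positions 50979401 to 51028566, minus strand) encodes DMT1, which moves ferrous iron out of endosomes. Its FPKM values were 13.4 and 12.9 in shZDHHC8 cells under cisplatin, 12.2 and 13.5 in shControl cells under cisplatin, 14.2 and 16.1 in shZDHHC8 cells with vehicle, and 14 and 12.5 in shControl cells with vehicle. The groups differed by little more than the spread within them. No contrast passed: the knockdown gave 0.04 under cisplatin and 0.18 with vehicle (limma adjusted p = 0.72 and 0.0915), and cisplatin gave -0.19 in shZDHHC8 cells and -0.04 in shControl cells (limma adjusted p = 0.0858 and 0.685). The cisplatin value in shZDHHC8 cells passed after median-of-ratios scaling, at -0.33 (limma adjusted p = 0.0122). The knockdown value with vehicle passed without shZDHHC8 vehicle replicate 1 (limma adjusted p = 0.049). The values under cisplatin overlapped between the lines, and their small difference changed sign under both scalings.

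SLC40A1 (ENSG00000138449, chromosome 2, positions 189560590 to 189583758, minus strand) encodes ferroportin, the iron exporter. It was the lowest member in every library and did not reach the minimum of 1 FPKM in any of them. Its values were 0.416 and 0.512 FPKM in shZDHHC8 cells under cisplatin, 0.302 and 0.257 in shControl cells under cisplatin, 0.444 and 0.637 in shZDHHC8 cells with vehicle, and 0.463 and 0.506 in shControl cells with vehicle. The 2 libraries of shControl cells under cisplatin were the lowest of the 8. With no filter on low values no contrast passed, and the cisplatin change in shControl cells was -0.21 (limma adjusted p = 0.0645), against -0.07 in shZDHHC8 cells (limma adjusted p = 0.537). The knockdown changes in that fit were 0.19 under cisplatin (limma adjusted p = 0.0858) and 0.05 with vehicle (limma adjusted p = 0.674). At such a level, with depth unknown, a change cannot be well measured.

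IREB2 (ENSG00000136381, chromosome 15, positions 78437431 to 78501453, plus strand) encodes IRP2, the iron regulatory protein that is degraded when iron is plentiful. IREB2 was at 21.1 and 21.3 FPKM in shZDHHC8 cells under cisplatin, 14.5 and 13.7 in shControl cells under cisplatin, 15.8 and 16.7 in shZDHHC8 cells with vehicle, and 13.9 and 14.5 in shControl cells with vehicle. The shZDHHC8 cells under cisplatin stood above all others, and the shControl groups overlapped. The knockdown raised IREB2 by 0.55 ± 0.057 (SE) under cisplatin (limma adjusted p = 4.99e-05) and by 0.18 ± 0.057 with vehicle (limma adjusted p = 0.0262). Cisplatin raised it by 0.37 in shZDHHC8 cells (limma adjusted p = 0.000932) and gave -0.01 in shControl cells (limma adjusted p = 0.888). The interaction of 0.38 ± 0.08 (SE) passed (limma adjusted p = 0.00911). The knockdown call with vehicle was lost after scaling to a common column total (limma adjusted p = 0.116), in a fit of the 4 vehicle libraries (0.0545), and without shZDHHC8 vehicle replicate 2 (0.121), shControl vehicle replicate 1 (0.133) or shControl vehicle replicate 2 (0.0558).

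ACO1 (ENSG00000122729, chromosome 9, positions 32384603 to 32454769, plus strand) encodes IRP1, which is a cytosolic aconitase when it holds an iron-sulfur cluster and binds hairpins when it does not. Its FPKM values were 7.38 and 6.63 in shZDHHC8 cells under cisplatin, 7.88 and 5.74 in shControl cells under cisplatin, 7.4 and 7.67 in shZDHHC8 cells with vehicle, and 7.04 and 6.61 in shControl cells with vehicle. The shControl libraries under cisplatin held both the highest and the lowest value. ACO1 passed in no contrast, with log2 changes of 0.05 and 0.13 for the knockdown under cisplatin and with vehicle (limma adjusted p = 0.74 and 0.404) and -0.09 and -0.02 for cisplatin in shZDHHC8 and shControl cells (limma adjusted p = 0.534 and 0.912). Without shControl cisplatin replicate 1 the knockdown value under cisplatin was 0.25 and passed (limma adjusted p = 0.0493).

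HMOX1 (ENSG00000100292, chromosome 22, positions 35380361 to 35394207, plus strand) encodes the inducible heme oxygenase, which opens the heme ring and frees its iron. Its FPKM values were 9.33 and 9.32 in shZDHHC8 cells under cisplatin, 14.5 and 15.7 in shControl cells under cisplatin, 11.4 and 10.6 in shZDHHC8 cells with vehicle, and 18.9 and 19.6 in shControl cells with vehicle. All 4 shZDHHC8 libraries lay below all 4 shControl libraries, and within each line the cisplatin libraries lay below the vehicle libraries. The knockdown lowered HMOX1 with a log2 change of -0.64 ± 0.063 (SE) under cisplatin (limma adjusted p = 4.27e-05) and -0.75 ± 0.063 with vehicle (limma adjusted p = 2.52e-05). Cisplatin changed it by -0.22 in shZDHHC8 cells (limma adjusted p = 0.02) and by -0.33 in shControl cells (limma adjusted p = 0.00167), and the interaction of 0.12 did not pass (limma adjusted p = 0.352). The call for cisplatin in shZDHHC8 cells was lost without shZDHHC8 cisplatin replicate 1 (limma adjusted p = 0.0756), shZDHHC8 cisplatin replicate 2 (0.0766) or shZDHHC8 vehicle replicate 1 (0.104). HMOX1 was eighth of the 10 members in all shZDHHC8 libraries and the fifth or sixth in shControl cells with vehicle, whereas FTH1, FTL, TFRC and NCOA4 held the top of the order and ACO1 and SLC40A1 its bottom in all 8 libraries.

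The interaction passed for 3 of the 9 tested members, 2 positive and 1 negative, against 30.4% of all tested genes, 17% positive and 13.4% negative. NCOA4 and IREB2 were higher, and SLC39A14 lower, in shZDHHC8 cells under cisplatin than the separate effects add up to. The interactions of FTH1, FTL and TFRC lay between -0.01 and 0.02, each with a standard error of 0.07 to 0.076, and differences of effects of about that size could not be resolved.

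The wider set of iron genes was described by lists that include the members. Their counts are read against the shares of all tested genes called higher and lower, which were 33.8% and 27.6% for the knockdown under cisplatin, 26.7% and 25% for it with vehicle, 36.9% and 13.6% for cisplatin in shZDHHC8 cells, and 36.8% and 25.4% in shControl cells. In lists of 10 or fewer genes a single gene moves the share by 10 percentage points or more. Of 18 genes of iron uptake, 13 were tested; the knockdown raised 7 and lowered 3 under cisplatin, and raised 7 and lowered 2 with vehicle, while cisplatin raised 4 and lowered 5 in shZDHHC8 cells and raised 5 and lowered 5 in shControl cells. The knockdown thus raised 53.8% of the tested uptake genes at each treatment. The median change with vehicle was 0.28, against 0.015 over all genes. STEAP3, the ferrireductase of the transferrin cycle, was at 12.3 and 12.8 FPKM in shZDHHC8 cells and 5.39 and 5.26 in shControl cells under cisplatin, and at 19.1 and 16.6 in shZDHHC8 cells and 8.64 and 6.61 in shControl cells with vehicle. It was higher in the knockdown at both treatments, by 1.10 and 1.14 on the log2 scale (limma adjusted p = 4.29e-05 and 5.05e-05). STEAP1, another member of that family, averaged 3.45 ± 0.323 FPKM in shZDHHC8 cells and 0.972 ± 0.135 in shControl cells with vehicle, a log2 change of 1.17 (limma adjusted p = 0.000108). LRP1, an endocytic receptor that takes up heme bound to hemopexin, fell with cisplatin to 3.87 ± 0.14 FPKM in shControl cells, against 10.7 ± 0.318 with vehicle (limma adjusted p = 6.86e-06). MCOLN1, a lysosomal channel that releases cations including iron, averaged 17.6 ± 0.312 FPKM in shControl cells under cisplatin and 11.7 ± 0.396 with vehicle (limma adjusted p = 2.6e-05).

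Of 8 tested genes of iron storage, iron chaperones and ferritin turnover, the knockdown raised 3 and lowered 1 under cisplatin and raised 3 and lowered none with vehicle, with medians of 0.12 in both. Cisplatin raised 1 and lowered 2 in shZDHHC8 cells and raised none and lowered 3 in shControl cells. The 3 raised with vehicle were FTH1, FTL and BOLA2B, a partner of the glutaredoxin that carries iron-sulfur clusters, which averaged 3.42 ± 0.561 FPKM in shZDHHC8 cells and 2.11 ± 0.284 in shControl cells (limma adjusted p = 0.0256). That call was lost without shZDHHC8 vehicle replicate 1 (limma adjusted p = 0.146), without shControl vehicle replicate 1 (0.129) and with no filter (0.0616), and BOLA2B has a near-identical copy, so its value is uncertain. With vehicle 1 storage gene was called without shControl vehicle replicate 1 and 0 with no filter, whereas with column totals made equal 2 were called higher and 2 lower. Under cisplatin 2 were called without shZDHHC8 cisplatin replicate 1, shZDHHC8 cisplatin replicate 2 or shControl cisplatin replicate 2. Of 4 tested export genes, the knockdown raised 2 under cisplatin, 1 without shZDHHC8 cisplatin replicate 1 or shControl cisplatin replicate 2, and none with vehicle, and lowered none. Cisplatin raised 1 and lowered 1 in shZDHHC8 cells and raised 1 and lowered 2 in shControl cells. CP, the ferroxidase ceruloplasmin, averaged 0.581 ± 0.00277 FPKM in shControl cells under cisplatin and 2.56 ± 0.33 with vehicle, a log2 change of -1.17 (limma adjusted p = 1.42e-05). At such low levels, with depth unknown, the size of this change is uncertain. NEDD4L, a ubiquitin ligase, averaged 37.9 ± 5.4 FPKM in shControl cells under cisplatin and 18.3 ± 2.72 with vehicle (limma adjusted p = 0.000168).

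Of 8 genes of the iron regulatory proteins and the machinery that degrades IRP2, all tested, the knockdown raised 4 under cisplatin and 2 with vehicle and lowered none. Cisplatin raised 2 and lowered none in shZDHHC8 cells and raised none and lowered 2 in shControl cells. The knockdown count under cisplatin was 2 without shZDHHC8 cisplatin replicate 2. With vehicle it was 1 without shZDHHC8 vehicle replicate 2 or shControl vehicle replicate 2. The cisplatin count in shControl cells was 1 without either shZDHHC8 cisplatin library, shControl cisplatin replicate 2 or shControl vehicle replicate 1. The genes raised with vehicle were IREB2 and RBX1, a subunit of the ubiquitin ligase that acts on IRP2, at 37 ± 1.05 FPKM in shZDHHC8 cells and 29.2 ± 1.1 in shControl cells (limma adjusted p = 0.00621). The genes lowered in shControl cells were CUL1 and SKP1, other subunits of it. CUL1 averaged 13.9 ± 0.545 FPKM under cisplatin and 16.8 ± 0.116 with vehicle (limma adjusted p = 0.00349). SKP1 varied widely between replicates, at 23.7 and 16.6 FPKM under cisplatin and 42.4 and 24.2 with vehicle (limma adjusted p = 0.0478), and its change of -0.66 shrank to -0.27 without shControl vehicle replicate 1 (limma adjusted p = 0.333) and to -0.42 without shControl cisplatin replicate 2 (0.248). Among 4 tested genes known for an element in the 5′ UTR, which include FTH1 and FTL, the knockdown raised 3 and lowered 1 under cisplatin and raised 3 and lowered none with vehicle. Cisplatin lowered FTH1 and FTL in each line and raised 1 gene in shControl cells. The counts thus partly repeat those of the members and of the storage list. EPAS1, which encodes HIF-2α, averaged 20.6 ± 0.713 FPKM in shZDHHC8 cells and 48.3 ± 0.817 in shControl cells under cisplatin, and 22 ± 0.0571 and 20.6 ± 0.151 in the same lines with vehicle. It rose with cisplatin in shControl cells by 1.19 (limma adjusted p = 3.95e-07), and this effect differed from that in shZDHHC8 cells (interaction -1.28, limma adjusted p = 2.57e-05). With no filter on low values the knockdown counts of this list were 2 under cisplatin and 1 with vehicle. Of 3 genes known for an element in the 3′ UTR, the knockdown raised 1 and lowered 1 under cisplatin and raised 1 with vehicle, or 2 without shZDHHC8 vehicle replicate 1. TFRC rose at both treatments and CDC14A, a phosphatase gene, fell under cisplatin (limma adjusted p = 0.00218). Cisplatin changed none of the 3 in shZDHHC8 cells, although 2 were lower after median-of-ratios scaling, and raised CDC14A in shControl cells. CDC14A averaged 2.2 ± 0.0563 FPKM in shControl cells under cisplatin and 1.64 ± 0.157 with vehicle (limma adjusted p = 0.0395), a call that was lost in 6 of 8 fits that left out a library.

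Of 20 tested genes of heme synthesis, transport and breakdown, the knockdown raised 9 and lowered 5 under cisplatin, and raised 9 and lowered 4, HMOX1 among them, with vehicle. Cisplatin raised 8 and lowered 1 in shZDHHC8 cells and raised 7 and lowered 3 in shControl cells. The knockdown calls made up 70% and 65% of the list, near the 61.4% and 51.7% of all tested genes. BLVRB, a biliverdin reductase, averaged 79.2 ± 0.901 FPKM in shZDHHC8 cells and 38.1 ± 0.615 in shControl cells under cisplatin, and 80.4 ± 8.14 and 41.2 ± 0.998 with vehicle. Its log2 change with the knockdown was 1.04 under cisplatin and 0.95 with vehicle (limma adjusted p = 4.14e-06 and 9.29e-06), opposite in sign to that of HMOX1. TMEM14C, a mitochondrial carrier of a heme precursor, averaged 62.3 ± 4.98 FPKM in shZDHHC8 cells and 34.3 ± 0.176 in shControl cells with vehicle (limma adjusted p = 8.31e-06). ALAS1, the enzyme that starts heme synthesis, averaged 33 ± 0.399 FPKM under cisplatin and 18.5 ± 0.521 with vehicle in shZDHHC8 cells, and 32.3 ± 0.235 and 18 ± 2.1 in shControl cells. It rose with cisplatin by 0.80 and 0.81 in these lines (limma adjusted p = 6.54e-05 and 1.97e-05).

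Of 24 tested genes of mitochondrial iron and iron-sulfur cluster assembly, the knockdown raised 7 and lowered 5 under cisplatin and raised 11 and lowered 3 with vehicle. Cisplatin raised 11 and lowered 2 in shZDHHC8 cells and raised 12 and lowered 3 in shControl cells. The knockdown calls made up 50% and 58.3% of the list, near the 61.4% and 51.7% of all tested genes. The called genes numbered 9 for the knockdown with vehicle without shZDHHC8 vehicle replicate 2 or after scaling to a common total. For cisplatin in shControl cells they numbered 9 without shControl cisplatin replicate 1 and 8 without shControl vehicle replicate 2. HSPA9, the mitochondrial chaperone of cluster transfer, averaged 174 ± 1.45 FPKM in shZDHHC8 cells and 195 ± 2.8 in shControl cells under cisplatin, and 134 ± 4.37 and 95.5 ± 0.802 with vehicle. Its cisplatin change was 0.37 in shZDHHC8 and 1.02 in shControl cells (limma adjusted p = 0.000187 and 3.96e-07). ISCA2, a late assembly factor, was lower in the knockdown with vehicle, at 2.97 ± 0.0171 against 5.07 ± 0.00441 FPKM in shControl cells (limma adjusted p = 0.000714). SLC25A37, the mitochondrial iron importer mitoferrin, averaged 32.6 ± 0.67 FPKM under cisplatin and 20 ± 0.00488 with vehicle in shControl cells (limma adjusted p = 1.11e-05).

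Of 10 genes listed for cytosolic iron-sulfur assembly, the knockdown raised 2 and lowered 1 under cisplatin and raised 4 and lowered 1 with vehicle, and cisplatin raised 5 and lowered 1 in shZDHHC8 cells and raised 4 and lowered 2 in shControl cells. The knockdown count under cisplatin was 5 when any vehicle library was left out. With vehicle it was 2 without shZDHHC8 vehicle replicate 2 or shControl vehicle replicate 2 and 3 without shControl vehicle replicate 1, without which the cisplatin count in shControl cells was also 3. CIAO1, a subunit of the complex that hands clusters to their targets, averaged 22.3 ± 0.202 FPKM in shZDHHC8 cells and 18.5 ± 0.137 in shControl cells with vehicle (limma adjusted p = 0.00236). NUBPL, which stands in this list but is known for the assembly of mitochondrial complex I, averaged 3.15 ± 0.172 and 2.1 ± 0.324 FPKM in these groups (limma adjusted p = 0.00719; 0.0579 without shControl vehicle replicate 2). NDOR1 and CIAPIN1, which pass electrons in this pathway, were raised by cisplatin in shControl cells, with log2 changes of 0.97 and 0.75 (limma adjusted p = 4.14e-06 and 2.45e-05).

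**Figure D4:**
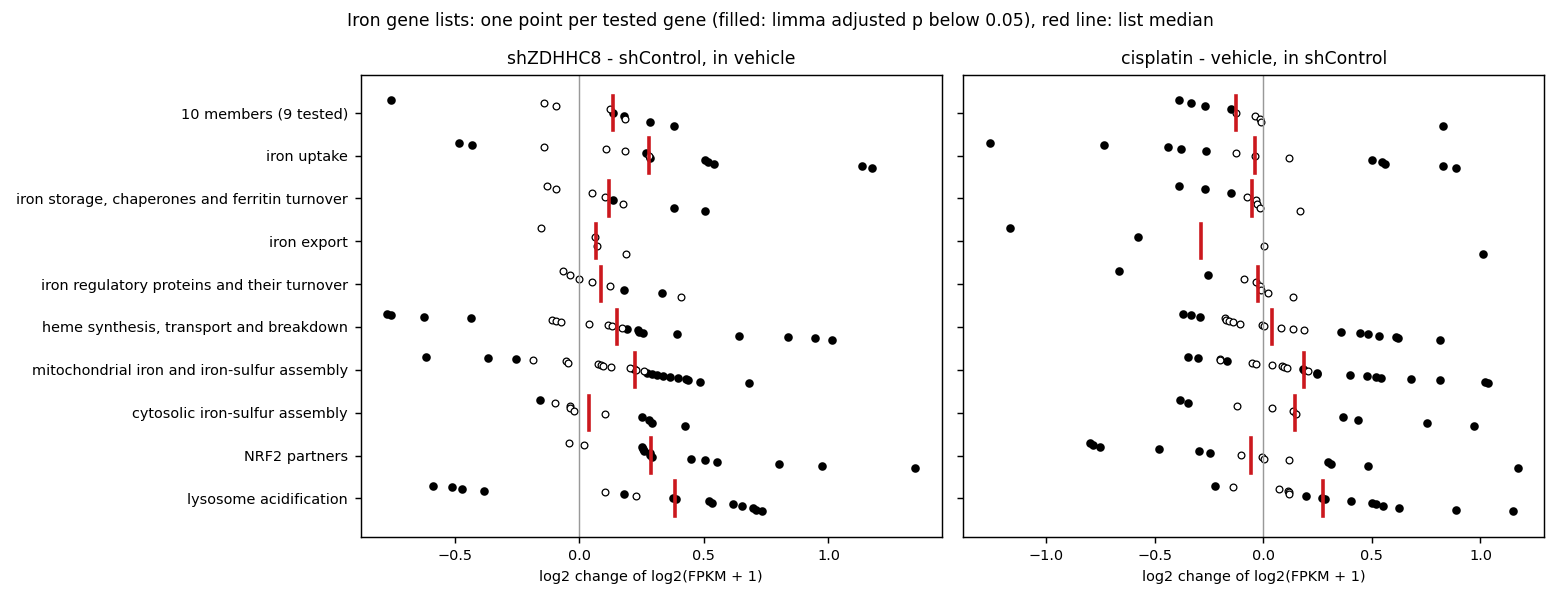
Log2 change of log2(FPKM + 1) for the knockdown with vehicle (left) and for cisplatin in shControl cells (right), with 1 row per gene list and 1 point per tested gene; filled points have a limma adjusted p below 0.05 and the red line is the list's median. The lysosome acidification and NRF2 partner lists have the highest medians on the left, at 0.38 and 0.29, and the export list the lowest on the right, at -0.29.

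Iron is linked to lipid peroxidation and ferroptosis, a form of cell death that needs iron, and to NRF2. Of 14 NRF2 target genes other than the ferritin and heme oxygenase genes, the knockdown raised 10 under cisplatin and 12 with vehicle and lowered none, where 33.8% and 26.7% of all tested genes were called higher. The medians were 0.39 and 0.29, and under cisplatin 1 of the 14 was called lower after either scaling. HMOX1 moved the other way in the same comparisons. Cisplatin raised 3 and lowered 7 of the 14 in shZDHHC8 cells, or 3 and 3 without shZDHHC8 vehicle replicate 2, and raised 4 and lowered 6 in shControl cells. TXNRD1, thioredoxin reductase, was at 164 and 169 FPKM in shZDHHC8 cells and 94.7 and 86.7 in shControl cells under cisplatin, and at 182 and 196 in shZDHHC8 cells and 72.1 and 75 in shControl cells with vehicle. Its knockdown change was 0.87 under cisplatin and 1.35 with vehicle (limma adjusted p = 4.96e-06 and 7.99e-07). OSGIN1, an oxidative stress-induced growth inhibitor, averaged 15.1 ± 0.202 FPKM in shZDHHC8 cells and 7.24 ± 0.783 in shControl cells with vehicle (limma adjusted p = 1.1e-05), and 17.5 ± 0.441 in shControl cells under cisplatin.

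Of 19 genes listed under ferroptosis defence, the knockdown raised 8 and lowered 5 under cisplatin and raised 8 and lowered 3 with vehicle. Cisplatin raised 3 and lowered 7 in shZDHHC8 cells and raised 5 and lowered 7 in shControl cells. Genes of this list need not all act in the same direction, so these counts do not measure stronger or weaker defence. The knockdown calls made up 68.4% and 57.9% of the list, near the 61.4% and 51.7% of all tested genes. The count of 10 for cisplatin in shZDHHC8 cells was 4 without either shZDHHC8 cisplatin library, 5 without shZDHHC8 vehicle replicate 2 and 6 with no filter. SCD, which makes monounsaturated fatty acids, averaged 7.9 ± 0.842 FPKM in shZDHHC8 cells and 31.4 ± 0.923 in shControl cells with vehicle, a log2 change of -1.87 (limma adjusted p = 5.41e-07). SLC3A2, the heavy chain of the cystine importer, averaged 594 ± 6.32 FPKM in shControl cells under cisplatin and 268 ± 0.124 with vehicle (limma adjusted p = 1.62e-07). Of 15 tested genes of ferroptosis execution and its markers, the knockdown raised 8 and lowered 4 at each treatment, and cisplatin raised 8 and lowered 2 in shZDHHC8 cells and raised 6 and lowered 4 in shControl cells. The knockdown calls made up 80% of this list at each treatment, against 61.4% of all tested genes under cisplatin and 51.7% with vehicle. CHAC1, which degrades glutathione, averaged 33 ± 2.11 FPKM in shZDHHC8 cells and 10.4 ± 0.495 in shControl cells with vehicle (limma adjusted p = 6.04e-07). LPCAT3, which puts polyunsaturated fatty acids into phospholipids, averaged 3.22 ± 0.317 and 8.48 ± 0.346 FPKM in these groups (limma adjusted p = 1.15e-05). SAT1, a polyamine acetyltransferase, was raised by cisplatin in shControl cells, with a log2 change of 1.39 (limma adjusted p = 2.27e-07). ALOXE3, a lipoxygenase family member, was at 2.8 and 2.77 FPKM in shControl cells under cisplatin and under 1 FPKM in all other libraries. It passed the filter only through the group where it is highest, so its log2 change of 1.34 is given as a description.

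Of 16 genes of lysosome acidification, the step on which iron release from endosomes and from ferritin depends, the knockdown raised 10 and lowered 5 under cisplatin and raised 10 and lowered 4 with vehicle. These calls made up 93.8% and 87.5% of the list, against 61.4% and 51.7% of all tested genes. Cisplatin raised 14 and lowered none in shZDHHC8 cells and raised 10 and lowered 1 in shControl cells, with medians of 0.37 and 0.28. Over all tested genes 36.9% and 36.8% were called higher, 13.6% and 25.4% lower, and the medians were 0.13 and 0.07. In shZDHHC8 cells 9 were called without shZDHHC8 cisplatin replicate 1. ATP6V0B, a subunit of the proton pump, averaged 122 ± 6.67 FPKM in shZDHHC8 cells and 102 ± 0.626 in shControl cells under cisplatin, and 91.6 ± 1.3 and 54.7 ± 1.37 with vehicle. It was raised by the knockdown with vehicle (0.73, limma adjusted p = 8.09e-06) and by cisplatin in shControl cells (0.89, limma adjusted p = 1.52e-06). ATP6V1G1 and ATP6V1D, other subunits of it, also rose: ATP6V1G1 with the knockdown in vehicle, by 0.71 (limma adjusted p = 1.15e-05), and ATP6V1D with cisplatin in shControl cells, by 0.62 (limma adjusted p = 7.78e-06). A list of 10 genes of hypoxia and iron metabolism also held regulators of the oxygen response, EPAS1 and EGLN3 among them. Of these 10, the knockdown raised 5 and lowered 2 under cisplatin and raised 2 and lowered 1 with vehicle. Cisplatin raised 1 and lowered 3 in shZDHHC8 cells and raised 1 and lowered 4 in shControl cells. In shZDHHC8 cells the cisplatin count was 2 without either shZDHHC8 cisplatin library, and after median-of-ratios scaling 1 rose and 8 fell. EGLN3, an oxygen-sensing prolyl hydroxylase, averaged 1.45 ± 0.0834 FPKM in shZDHHC8 cells and 0.577 ± 0.108 in shControl cells with vehicle. It stayed under 1 FPKM in every shControl library and passed the filter only through the knockdown libraries. Its difference between the lines is thus given as a description.

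The genes whose log2 values followed a member most closely over the 8 libraries were found among 6233 genes, the member included, with a mean of at least 10 FPKM. The 8 libraries share their 4 groups, so a high correlation reflects the ordering of group means and is given as a description. For FTH1 these were NDRG1 (r = 0.995), SLC9A3R2 (r = 0.99) and MGST3 (r = 0.989). NDRG1 averaged 60.6 FPKM in shZDHHC8 and 39.4 in shControl cells under cisplatin, and 87.1 in shZDHHC8 and 53.7 in shControl cells with vehicle. For FTL they were ANXA2 (r = 0.997), SMS (r = 0.993) and LAMB1 (r = 0.99), with ANXA2 at 731 and 640 FPKM under cisplatin and 1095 and 936 with vehicle in shZDHHC8 and shControl cells. For TFRC they were WASHC5 (r = 0.987), DNAJC19 (r = 0.982) and RTN4 (r = 0.977), with RTN4 at 225 and 166 FPKM under cisplatin and 254 and 189 with vehicle in the same order of lines. For HMOX1 they were FURIN (r = 0.995), FAT1 (r = 0.994) and UBE4B (r = 0.993), with FURIN at 25.1 and 34 FPKM under cisplatin and 27.5 and 38.6 with vehicle. The genes nearest to HMOX1 were lower in the knockdown at both treatments, and those nearest to FTH1, FTL and TFRC were higher. Both directions follow from the way these genes were chosen.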

How the data were processed

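The authors deposited 1 table of normalized values for the 8 libraries, on hg38 per the submitters' processing notes. It names no unit; the deposited values were taken as FPKM, since they are not whole numbers and column totals differ. Read depth is unknown. The aligner, quantifier, annotation release and strandedness were not given in the sources used here. Poly(A) RNA was selected from TRIzol extracts freed of DNA, per the labels' protocols.

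Values were transformed to log2(FPKM + 1). Genes at 1 FPKM or more in at least 2 libraries were tested, 13495 of 21123; 402 genes were at 0 throughout. A single model with 4 group means was fitted by limma 3.58.1 under R 4.3.3 (lmFit, then eBayes with an intensity trend), with 5 contrasts, Benjamini-Hochberg adjustment over all tested genes of each contrast and a threshold of 0.05. The fit was also run on simulated data for the knockdown with vehicle, with normal noise and fewer changed genes than were called here. That run did not cover the interaction or the fit with no filter. The spread behind each p-value is that between labelled replicates, which may be technical. With 2 libraries in each group the residual degrees of freedom were 4 (prior 4.64), and the median SE was 0.079, or 0.11 for the interaction.

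The members and the gene lists, written from general knowledge, were chosen with earlier results of these data known. The text names all members, the ferritin pseudogenes averaging 1 FPKM or more, the 3 genes most like FTH1, FTL, TFRC and HMOX1, and the called genes of each list with the smallest p in the knockdown with vehicle and in cisplatin in shControl cells. At most 4 per list and comparison qualified, of which at most the first 2 are given; some that the rule names are not reported here. Alternatives were a pseudocount of 0.1, no filter, no trend, only the 4 libraries of a contrast, a replicate block, 2 scalings, a fold threshold and each library left out.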

Additional observations from a re-analysis of the deposited data

Results flagged for a closer look

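The effect of cisplatin differed between shZDHHC8 and shControl cells, by a called interaction on the log2 scale, for 3 of the iron handling genes: NCOA4 at 0.3965, IREB2 at 0.3752 and SLC39A14 at -0.4243 (limma adjusted p = 0.00411, 0.00911 and 0.00453). Their values in each library are given above, and the cause was not tested. In the background 30.4% of tested genes had such an interaction.

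The list genes named above were chosen for their changes from the shControl vehicle libraries, which also enter the interaction. That choice favours called interactions opposite in sign to the change chosen on, so their number is not a result. Over all tested genes 30.4% had a called interaction. The other genes named above with a called interaction were, on the positive side, SCD at 1.4137, LPCAT3 at 0.8615, LRP1 at 0.6317 and MCOLN1 at 0.3343. On the negative side were EPAS1 at -1.2827, CHAC1 at -0.9216, HSPA9 at -0.6458, OSGIN1 at -0.5015, ATP6V0B at -0.4809, TXNRD1 at -0.4757, ALOXE3 at -0.473 (0.5688 and not called with a pseudocount of 0.1), SLC25A37 at -0.4554, TMEM14C at -0.4235, SLC3A2 at -0.3776, NDOR1 at -0.3421, SAT1 at -0.2981 and CIAO1 at -0.2236. With a library left out, the call was lost in 8 of 8 fits for CIAO1, 6 for ALOXE3, 4 for NDOR1 (limma adjusted p = 0.0635 to 0.0835) and 1 for SAT1 (0.0539). ALOXE3 also passed the filter only through shControl cells under cisplatin, so its interaction is given as a description. Groups of 2 libraries allow no test for a library that stands apart.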

How the results depend on the processing

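Of 45 member values tested, 26 passed the threshold, none of these 26 changed sign in any alternative run, and 16 kept their call in all of them. All 45 stayed on their side of the threshold with a pseudocount of 0.1. Without a filter on low values 6 calls were lost, 4 of them those of FTH1; this ended when the trend was dropped too, an alternative chosen after seeing the data, under which 3 calls were lost, none of FTH1. Among 123 called values of the other named genes, 23 lost the call in some alternative and 1 changed sign, the interaction of ALOXE3 at 0.5688 with a pseudocount of 0.1 (limma adjusted p = 0.346). Of 75 list counts, 34 moved by over 1.5 times in some alternative. These checks of other genes and lists were added after seeing the data.

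With a log2 change of at least 1 required as well, 602 genes passed for the knockdown under cisplatin, 400 for it with vehicle, 201 for cisplatin in shZDHHC8 cells, 735 in shControl cells and 265 for the interaction, and 0 members in each. For the knockdown with vehicle the 5 called members became 3 with no filter, 3 with only the 4 libraries, and 3 to 6 with a library left out; 3 of them remained without shZDHHC8 vehicle replicate 2, shControl vehicle replicate 1 or shControl vehicle replicate 2.

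Values that changed sign were all below the threshold. After scaling to a common total, the knockdown under cisplatin gave -0.0534 for SLC11A2 and -0.0357 for ACO1, cisplatin in shControl cells gave 7e-04 for IREB2, and the interaction gave -0.0076 for FTL and -0.0102 for TFRC. After median-of-ratios scaling these knockdown values were -0.0508 and -0.0333, and the interactions -0.0661 for FTL and -0.0681 for TFRC. With a library left out, the knockdown under cisplatin ranged from -0.0325 to 0.1045 for SLC11A2 and from -0.1513 to 0.2475 for ACO1. Cisplatin in shControl cells ranged from -0.1194 to 0.0378 for SLC11A2, from -0.0477 to 0.0276 for IREB2 and from -0.2162 to 0.1826 for ACO1. The interaction ranged from -0.0696 to 0.046 for FTH1, from -0.0344 to 0.0717 for FTL, from -0.0479 to 0.079 for TFRC and from -0.2764 to 0.1223 for ACO1. The causes were not tested.

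The calls of all genes split as follows (higher and lower). For the knockdown under cisplatin they were 4561 and 3720 as deposited, and 3701 and 4619 after scaling to a common total, or 3704 and 4573 after median-of-ratios scaling. For the knockdown with vehicle they were 3602 and 3373 as deposited, and 2888 and 4054 after scaling to a common total. For cisplatin in shZDHHC8 cells they were 4976 and 1841 as deposited, and 2925 and 3075 after median-of-ratios scaling. For the interaction they were 2298 and 1806, and 1708 and 2544 after that scaling.

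With a replicate block, 8129 genes and 7 members were called for the knockdown under cisplatin, 6724 and 4 with vehicle, 6590 and 6 for cisplatin in shZDHHC8 cells, 8249 and 5 in shControl cells, and 3758 and 3 for the interaction. The block ended the call of FTL for the knockdown with vehicle (limma adjusted p = 0.0696) and no other member call. Deviations of same-numbered libraries correlated at r = -0.0515 to 0.0198, so no shared effect of the replicate number was seen. Whether same-numbered libraries were handled together cannot be told from this.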
